A study of Homo sapiens with 6 samples.

Results

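The genes described here are 10 members of the fibroblast growth factor (FGF) system: the secreted carriers FGFBP1 and FGFBP3, the ligands FGF1, FGF2 and FGF5, the tyrosine kinase receptors FGFR1, FGFR2, FGFR3 and FGFR4, and the receptor-like protein FGFRL1. They were taken by symbol from the 58735 genes of the deposited files, and each symbol matched 1 row. They were chosen by their FPKM in LACTB and EV cells together with their function, FGFBP1 being 1 of the genes that differed most, so the members' own levels are a description and carry no test. The libraries came from MUM2B cells, which the labels call melanoma: 3 libraries of cells stably overexpressing LACTB, a serine protease-like protein of mitochondria, and 3 of cells stably carrying an empty vector (EV). Both lines were grown in RPMI medium with serum. The labels say neither whether each line is 1 clone or a pool nor whether the replicates were separate cultures, so the p-values given here measure only the spread between these libraries, and LACTB cannot be told apart from any other difference between the 2 lines.

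FGFs bind receptor tyrosine kinases on the cell surface together with heparan sulfate, a sugar chain that also holds the ligands in the matrix. FGFBP1 is a secreted protein that binds FGFs such as FGF1 and FGF2 and frees them from that store, and it has been linked to angiogenesis and growth of tumours. Receptor signals run through the docking protein FRS2 and the RAS-MAPK relay to genes that include their own inhibitors.

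The libraries held 16978799 to 18395631 reads in genes. LACTB itself stood at 174, 169 and 161 FPKM (fragments scaled to exon length and library size) in LACTB cells, against 3.81, 3.39 and 4.71 FPKM in EV cells, so all libraries matched their labels. All 8 melanocyte markers looked at lay under 1 FPKM in every library, with sums of 1.70 to 2.13 FPKM in LACTB cells and 1.26 to 1.34 FPKM in EV cells. The pigment cell identity in the label was therefore not visible in these markers. The summed level of 8 keratinocyte and epithelial markers, nearly all from KRT8, KRT18 and SFN, was 380 to 388 FPKM in LACTB cells and 451 to 473 FPKM in EV cells, and that of 7 fibroblast markers, nearly all vimentin (VIM), 468 to 488 FPKM in LACTB cells and 500 to 527 FPKM in EV cells. Of 4 endothelial markers only CDH5 passed 1 FPKM, and their sum was 13.9 to 14.7 FPKM in LACTB cells and 47.6 to 52.4 FPKM in EV cells; all 4 haematopoietic markers lay under 1 FPKM. The part of these shifts in the results below was not tested. EV replicate 3 stood apart from the other EV libraries, with 3.61% of its reads from mitochondrially encoded genes, against 5.54% and 5.62%.

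The DNA just before the start site is shown for the 3 members with the largest differences, FGFBP1, FGF1 and FGF5. Each line gives the 250 bases before the RefSeq start (GRCh38.p14), 5′ to 3′ on the gene's strand. The windows are chr4:15938741-15938990 (minus strand) for FGFBP1, chr5:142698071-142698320 (minus strand) for FGF1 and chr4:80266338-80266587 (plus strand) for FGF5. FGF1 has 4 listed windows and FGF5 has 2. The one nearest the outermost GENCODE start was taken, and gene-level values do not say which start the cells used.
FGFBP1: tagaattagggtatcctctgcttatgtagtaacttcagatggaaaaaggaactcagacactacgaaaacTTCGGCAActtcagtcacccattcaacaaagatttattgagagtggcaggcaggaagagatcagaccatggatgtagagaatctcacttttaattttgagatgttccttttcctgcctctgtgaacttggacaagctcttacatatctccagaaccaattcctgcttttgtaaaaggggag
FGF1: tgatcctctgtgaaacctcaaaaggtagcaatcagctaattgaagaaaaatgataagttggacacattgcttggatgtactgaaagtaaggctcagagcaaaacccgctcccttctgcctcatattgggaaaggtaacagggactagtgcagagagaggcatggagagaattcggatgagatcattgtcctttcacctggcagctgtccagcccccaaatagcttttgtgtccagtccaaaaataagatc
FGF5: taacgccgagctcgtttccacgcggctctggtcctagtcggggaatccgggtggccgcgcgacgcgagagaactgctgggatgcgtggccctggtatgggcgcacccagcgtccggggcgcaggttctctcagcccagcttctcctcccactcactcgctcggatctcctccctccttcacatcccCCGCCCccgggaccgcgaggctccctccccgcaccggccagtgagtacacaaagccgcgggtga

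Capitals mark matches to 5 motifs searched on both strands: AP-1 (TGANTCA), C/EBP (TTGCNNAA), SP1 (GGGCGG), TEAD (GGAATG) and the TATA box (TATAAA), with no match overlapping another. FGFBP1 held 1 match, to the C/EBP letters, 181 to 174 bases before the start. Those letters occur in 9.06% of 34943 windows of the same length. FGF5 held 1 SP1 match, 64 to 59 bases before the start, a match that 42.5% of windows hold. The window of FGF2, which was also lower and is not shown, held 3 SP1 matches and 75.2% G and C. FGF1 held none of the 5, of which AP-1 occurs in 6.59%, TEAD in 11.9% and TATA in 10.8% of windows. The windows of FGFBP1 and FGF1 were poor in G and C, at 40.8% and 44.8%, whereas that of FGF5 had 68.8%; the median window had 58%.

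FGFBP1 (ENSG00000137440; chromosome 4, 15935569 to 15938740, minus strand) was close to absent in LACTB cells. It had 3, 0 and 0 reads in LACTB replicates 1 to 3, against 99, 92 and 105 reads in EV replicates 1 to 3. As levels these are 0.122, 0 and 0 FPKM in LACTB cells and 4.14, 3.73 and 4.29 FPKM in EV cells. The groups lay far apart, and in LACTB replicates 2 and 3 the level was below 0.122 to 0.128 FPKM, the value of 3 reads in this gene. Over the summed reads, FGFBP1 was 97.8-fold lower in LACTB cells, and counting error alone allows from 33.1-fold to 477-fold (exact 95% limits by Clopper and Pearson). The difference in mean log2(FPKM + 1), the scale used for all differences below, was -2.28 (SE 0.0885). In bulk RNA, fewer cells with the transcript and less of it per cell cannot be told apart.

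Among 10285 protein-coding genes averaging 1 FPKM or more in either group, FGFBP1 had the lowest ratio of LACTB to EV. This rank restates why FGFBP1 was chosen, and FGFBP1 met the minimum only through its EV level. The next was WNT7A, a Wnt ligand, with 33 reads in LACTB cells and 1150 in EV cells (34.5-fold lower in LACTB cells by mean FPKM), a size within the counting limits given for FGFBP1, so the order of the pair is not resolved. They were followed by INSIG1, TENM2 and SPNS2. With non-coding genes included, FGFBP1 ranked 10 of 12316. The 9 genes below it were all listed at 0 in LACTB cells, and the 5 lowest, MIR6784, RNY1P4, MIR4641, RNU6-90P and MIR32, rested on 4 to 8 EV reads each. The tested genes whose pattern over the 6 libraries was most like that of FGFBP1, by Pearson's r of log2(FPKM + 1) among the 146 genes that differed by at least 1, included STARD4, IDI1, DCDC2 and HMGCS1, with r from 0.998 to 0.999. With 2 groups of 3, such an r mostly reflects the distance between the groups, and the sizes differed: STARD4 stood at 11.1 ± 0.419 FPKM in LACTB cells and 29.2 ± 0.886 FPKM in EV cells (SD, n = 3 each), a far smaller difference than that of FGFBP1.

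**Figure D1:**
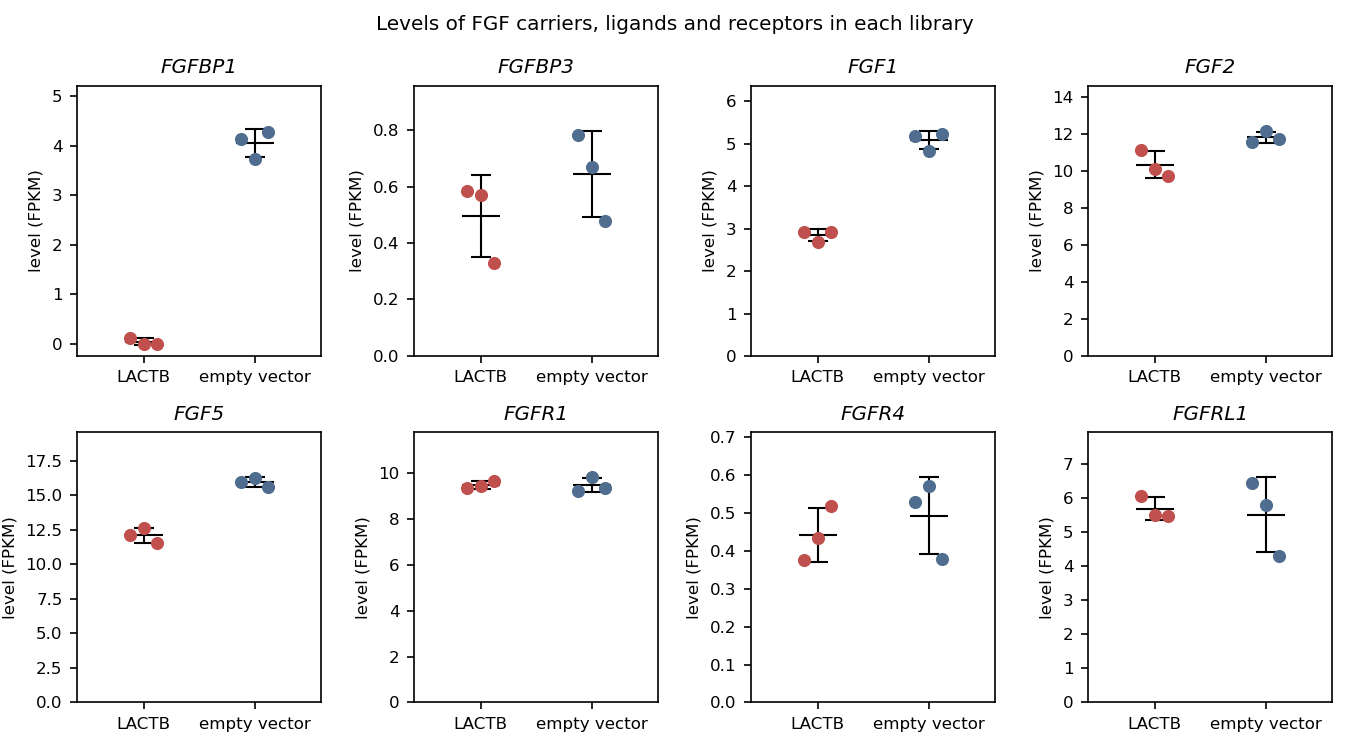
Level in FPKM (linear axis) of the 8 members with more than 1 read, 1 panel per gene, with LACTB libraries in red and empty vector libraries in blue; each point is 1 library, and black bars give the mean and SD of 3. FGFBP1, FGF1, FGF2 and FGF5 are lower in all LACTB libraries than in any EV library, and the groups overlap for the other 4.

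The tested genes around FGFBP1 did not share its near absence. All genes nearer than the closest of them, BST1, averaged under 1 FPKM, so whether they changed was not tested. Within 500 kb on either side lay 20 other annotated genes, whole or in part, 5 of which were tested, and 3 of these fell by limma's adjusted p while 2 did not pass; over all tested genes, 17.2% were called lower and 14.8% higher. With 5 genes tested, nothing is read from that count. This window was chosen after its values were seen. BST1, an enzyme gene whose start lies 236 kb away, fell to 3.95 ± 0.0825 FPKM in LACTB cells, against 5.88 ± 0.369 FPKM in EV cells (difference -0.47, limma, adjusted p = 0.00106). FBXL5, a regulator of iron handling, stood at 10.6 ± 0.845 FPKM in LACTB cells and 14.0 ± 0.833 FPKM in EV cells (difference -0.37, limma, adjusted p = 0.00638). FAM200B fell as well (difference -0.40, limma, adjusted p = 0.0315). TAPT1, on the other side, stood at 2.30 FPKM in LACTB cells and 2.46 FPKM in EV cells (limma, adjusted p = 0.413), and CC2D2A at 3.42 FPKM in LACTB cells and 3.22 FPKM in EV cells (limma, adjusted p = 0.627). FGFBP2, the neighbouring carrier gene 30.6 kb away, had no read in any library.

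**Figure D2:**
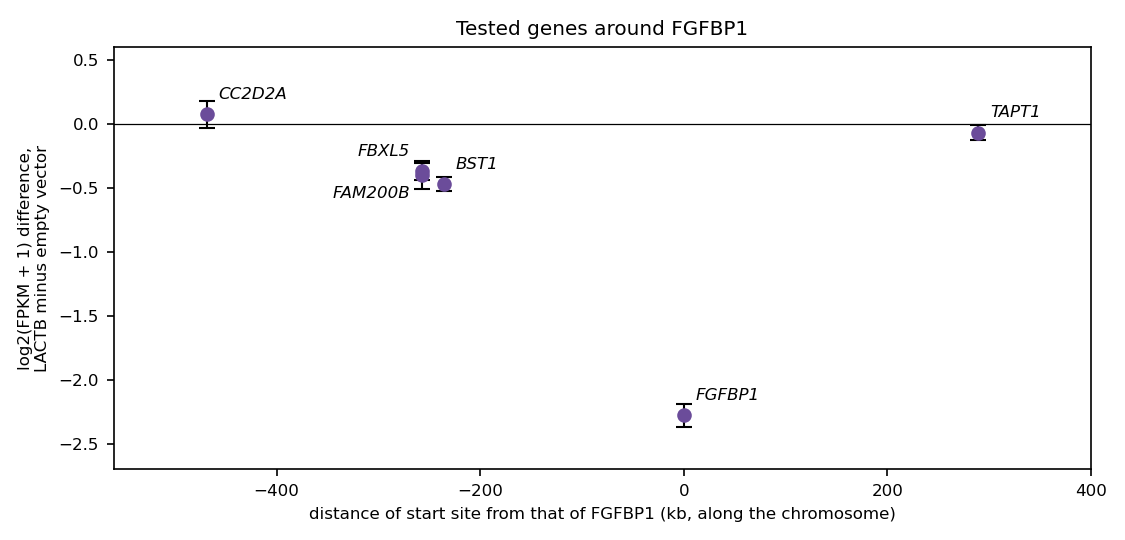
Difference in mean log2(FPKM + 1), LACTB minus empty vector, with its SE, for the 6 tested genes within 500 kb of FGFBP1, against the distance between start sites in kb. FGFBP1 lies at -2.28, and the 5 other genes lie between -0.47 and 0.07.

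FGFBP3, the other carrier, was low in both groups. Its level was 0.586, 0.571 and 0.328 FPKM in LACTB cells, against 0.782, 0.671 and 0.480 FPKM in EV cells, on 67 and 88 reads over the 3 libraries of each. The groups overlapped, and a summed ratio of LACTB to EV anywhere from 0.550 to 1.07 is within counting error (exact 95% interval). In LACTB cells FGFBP3 stood at 0.495 ± 0.145 FPKM and FGFBP1 at 0.0406 ± 0.0704 FPKM, whereas in EV cells FGFBP1 was the higher of the pair, at 4.05 ± 0.288 FPKM, with FGFBP3 at 0.644 ± 0.153 FPKM (SD, n = 3 each).

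All 3 ligands were lower in LACTB cells, to different degrees. FGF1 (ENSG00000113578; chromosome 5, 142592178 to 142698070), which lacks a classical signal peptide and can bind every FGF receptor, had 2.92, 2.68 and 2.93 FPKM in LACTB cells, against 5.19, 4.84 and 5.23 FPKM in EV cells. The groups did not overlap, and the ratio of means was 0.559 (difference -0.66, SE 0.0558). FGF5 (ENSG00000138675; chromosome 4, 80266599 to 80336680), a secreted ligand best known as a brake on hair growth, had 12.1, 12.6 and 11.5 FPKM in LACTB cells, against 16.0, 16.3 and 15.6 FPKM in EV cells. Here too the groups lay apart, with a ratio of 0.758 (difference -0.37, SE 0.0455). FGF2 (ENSG00000138685; chromosome 4, 122826708 to 122898236), basic FGF, which also leaves cells without a signal peptide, had 11.2, 10.1 and 9.77 FPKM in LACTB cells, against 11.6, 12.2 and 11.7 FPKM in EV cells. Its groups came close, LACTB replicate 1 being just under EV replicate 1, and the ratio was 0.875 (difference -0.18, SE 0.0557).

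FGF2 shares exon sequence with a neighbour: 804 bases of its exons, 11.9% of their length, overlap those of NUDT6, a gene on the opposite strand, and the use of strand in counting is not given in the sources used here. NUDT6 itself stood at 0.533 ± 0.0649 FPKM in LACTB cells and 0.571 ± 0.133 FPKM in EV cells (SD, n = 3 each), far below FGF2. Exon overlap was smaller for FGF5, at 136 bases with CFAP299 on the same strand, and FGF1 shared no exon base with another gene. Summed over FGF1, FGF2 and FGF5, the ligand level was 25.3 ± 0.979 FPKM in LACTB cells and 32.9 ± 0.375 FPKM in EV cells. FGF1 made up 11.3% of that sum in LACTB cells and 15.5% in EV cells, FGF2 40.9% in LACTB cells and 36.0% in EV cells, and FGF5 47.9% in LACTB cells and 48.5% in EV cells. For every 100 FPKM of ligand there were 0.155 ± 0.269 FPKM of FGFBP1 in LACTB cells and 12.3 ± 1.01 FPKM in EV cells (SD, n = 3 each). The LACTB value came from replicate 1 alone, with 3 reads.

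The receptors were close to level between the groups, and FGFR1 was nearly the whole of them. FGFR1 (ENSG00000077782; chromosome 8, 38400215 to 38468834) had 9.35, 9.44 and 9.66 FPKM in LACTB cells, against 9.22, 9.81 and 9.36 FPKM in EV cells. The groups overlapped throughout, and the exact 95% interval for the summed ratio, 0.969 to 1.04, covers counting error only. FGFR4, the other kinase receptor with more than 1 read, had 0.377, 0.433 and 0.518 FPKM in LACTB cells, against 0.530, 0.571 and 0.379 FPKM in EV cells, again overlapping. FGFR1 made up 95.5% of the summed level of FGFR1 to FGFR4 in LACTB cells and 95.1% in EV cells. FGFR3 had 1 read, in LACTB replicate 2, and FGFR2 none. For FGFR2, 3 reads would be 0.0218 to 0.0230 FPKM, so a lower level was not detectable at this depth.

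FGFRL1 (ENSG00000127418; chromosome 4, 1009936 to 1026897), which binds FGFs but has no kinase domain, had 6.06, 5.48 and 5.47 FPKM in LACTB cells, against 6.42, 5.78 and 4.28 FPKM in EV cells. The spread came from EV replicate 3, which also had the fewest mitochondrial reads by share. Without that library the difference was -0.09, against 0.05 with all libraries, so its sign rests on 1 library. The ratio of summed ligand level to the sum of FGFR1 to FGFR4, without FGFRL1, was 2.55 ± 0.157 in LACTB cells and 3.30 ± 0.0821 in EV cells (SD, n = 3 each). The sums of FGFR1 to FGFR4 were close, at 9.93 ± 0.232 FPKM in LACTB cells and 9.96 ± 0.363 FPKM in EV cells.

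**Figure D3:**
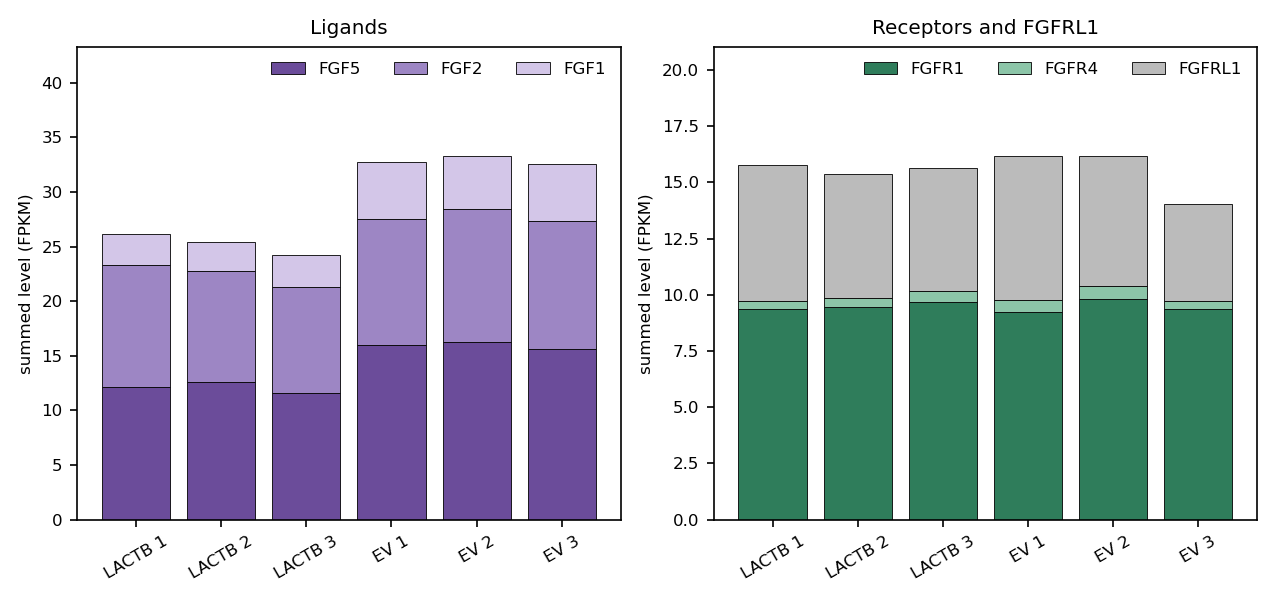
Summed level in FPKM of the 3 ligands (left panel) and of FGFR1, FGFR4 and FGFRL1 (right panel), 1 stacked bar per library, LACTB libraries on the left of each panel. The ligand bars reach 24.2 to 26.2 FPKM in LACTB cells and 32.6 to 33.3 FPKM in EV cells, while FGFR1 has nearly the same height in all 6 libraries.

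In both groups the highest members were FGF5, FGF2, FGFR1 and FGFRL1, in that order. In LACTB cells FGF1 followed, then FGFBP3 and FGFR4, whose ranges overlapped, and FGFBP1 lay below them together with FGFR3 and FGFR2. In EV cells the ranges of FGFRL1 and FGF1 overlapped, FGFBP1 came next, with all its libraries below those of FGF1, and FGFBP3 and FGFR4 again overlapped. Of the 10 members 6 had a mean of at least 1 FPKM and entered the fit across all genes; FGFBP3, FGFR2, FGFR3 and FGFR4 did not. There, FGFBP1, FGF1, FGF2 and FGF5, 4 of the 6, lay past the threshold of an adjusted p under 0.05 on the lower side, which is given as a description and not as a test, since the same contrast chose them; FGFR1 and FGFRL1 did not. Over all 11875 tested genes, 17.2% were called lower and 14.8% higher, 32% in all. The groups did not overlap, with LACTB lower, for the same 4 of all 10 members, as for 25.1% of the tested genes; LACTB lay wholly above EV for 22.3% of them, which makes 47.4% without overlap. Nothing is read from these counts. The place of FGF2 was near the threshold: with 1 library left out its difference lay between -0.23 and -0.14. It was past the threshold in 1 of those 6 fits, the one without LACTB replicate 1. FGF2 also fell short of it with no filter, on TPM, with no variance trend and with the replicate block. Over all 14 alternatives it was past the threshold in 5.

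The other genes of the pathway were taken from 7 lists that hold none of the members. Of 123 genes, 78 were tested; 14 rose and 19 fell, 17.9% and 24.4% of them, beside 14.8% and 17.2% of all tested genes. Their median difference was -0.03, and that of all tested genes -0.01. Without LACTB replicate 2 the number that rose was 9, while over all genes it was 1115 in place of 1758. Each list below has 2 to 20 tested genes and stands beside the same 14.8% higher and 17.2% lower of all tested genes. Nothing is read from counts that small.

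Other FGF ligands were scarce. Of 20 genes in that list, FGFBP2 included, 2 were tested and 10 had no read in any library. Both tested genes encode intracellular FGF homologous factors, which act on sodium channels and not as classical ligands. FGF13 rose, with 4.31, 4.32 and 3.68 FPKM in LACTB cells, against 3.19, 3.07 and 2.73 FPKM in EV cells (difference 0.35, limma, adjusted p = 0.0125), and FGF12 stood at 1.73 FPKM in LACTB cells and 1.47 FPKM in EV cells (limma, adjusted p = 0.164). FGF21, a stress-induced hormone-like ligand, had 8 reads over the LACTB libraries and 2 over the EV libraries, and its ratio, with an exact 95% interval of 0.805 to 39.0, was not resolved at this depth. FGF11 was listed at 0.

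Of 9 tested genes for co-receptors and cell surface proteoglycans, 5 rose, 1 fell and 3 did not pass, with a median difference of 0.19. SDC4, syndecan-4, a heparan sulfate proteoglycan of adhesion sites, had 93.5, 91.3 and 93.6 FPKM in LACTB cells, against 69.8, 66.8 and 61.6 FPKM in EV cells (difference 0.49, SE 0.0522; limma, adjusted p = 0.000754). All LACTB libraries lay well above the EV libraries. SDC3, another syndecan, moved the other way, to 7.12 ± 0.362 FPKM in LACTB cells, against 10.2 ± 0.532 FPKM in EV cells (difference -0.46, limma, adjusted p = 0.00121). FLRT2, a membrane protein of a family that interacts with FGF receptors, rose to 1.48 ± 0.0959 FPKM in LACTB cells, against 0.939 ± 0.0525 FPKM in EV cells (limma, adjusted p = 0.0136), and GPC1, glypican-1, to 2.41 ± 0.190 FPKM, against 1.75 ± 0.0451 FPKM (limma, adjusted p = 0.0138). Without LACTB replicate 2 both lost the call (limma, adjusted p = 0.0544 and 0.0545) and the number that rose was 1; without LACTB replicate 1 or EV replicate 1 it was 3, and without EV replicate 3 the number that fell was 2. FLRT2, under 1 FPKM in EV cells, met the minimum for testing only through its LACTB level. HSPG2, perlecan, a matrix proteoglycan known to bind FGFBP1, stood at 0.911 FPKM in LACTB cells and 0.772 FPKM in EV cells and was not tested. IL17RD was not tested either, at 0.490 FPKM in LACTB cells and 0.796 FPKM in EV cells (250 and 409 reads), with all LACTB libraries lower. GPC6, also untested, lay the other way on 8 and 1 reads.

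Of 15 tested genes that build or edit heparan sulfate, 5 fell and 10 did not pass, with a median difference of -0.07. EXT1, a subunit of the enzyme that lengthens the chain, fell to 32.3 ± 0.442 FPKM in LACTB cells, against 38.0 ± 0.912 FPKM in EV cells (difference -0.23, limma, adjusted p = 0.00438). EXTL2, a related transferase, fell to 8.24 ± 0.558 FPKM, against 11.3 ± 0.485 FPKM (difference -0.41, limma, adjusted p = 0.00232), and NDST1, which starts sulfation of the chain, to 12.6 ± 0.268 FPKM, against 15.1 ± 0.687 FPKM (difference -0.24, limma, adjusted p = 0.00781). The differences were small, and without LACTB replicate 1 a further gene was called higher.

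Of 20 tested genes of the receptor adaptors and the RAS-MAPK relay, 2 rose, 4 fell and 14 did not pass, with a median difference of -0.04; without LACTB replicate 2 the number that fell was 1, and without EV replicate 2 it was 2. The calls lost there included GRB2, the adaptor between receptor and SOS (limma, adjusted p = 0.0572 and 0.055 without those libraries, against 0.0172 with all), and, without LACTB replicate 2, CRK (limma, adjusted p = 0.0641, against 0.0144). PLCG1 was called lower at the threshold (limma, adjusted p = 0.0499), and MAPK3 fell just short of it (limma, adjusted p = 0.0506). GAB1 was not tested, at 0.704 FPKM in LACTB cells and 1.06 FPKM in EV cells, with all LACTB libraries lower. FRS2, the docking protein of FGF receptors, had 6.73, 6.45 and 6.26 FPKM in LACTB cells, against 8.58, 8.45 and 8.42 FPKM in EV cells (difference -0.34, SE 0.0435; limma, adjusted p = 0.0015). The groups were well separated. CBL, a ubiquitin ligase that marks receptors for breakdown, rose to 13.3 ± 0.694 FPKM in LACTB cells, against 10.0 ± 0.645 FPKM in EV cells (difference 0.38, limma, adjusted p = 0.00378), and SOS2, which loads RAS with GTP, to 6.63 ± 0.200 FPKM, against 5.31 ± 0.0670 FPKM (difference 0.27, limma, adjusted p = 0.00397).

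Of 18 tested feedback inhibitors and transcriptional targets of FGF signalling, 2 rose, 5 fell and 11 did not pass, with a median difference of -0.06. EGR1, an immediate early transcription factor, had 18.3, 18.6 and 18.7 FPKM in LACTB cells, against 6.25, 6.87 and 5.78 FPKM in EV cells (difference 1.43, SE 0.0592; limma, adjusted p = 1.1e-05). DUSP4, a nuclear phosphatase of MAP kinases, rose to 11.0 ± 0.617 FPKM in LACTB cells, against 6.05 ± 0.303 FPKM in EV cells (difference 0.77, limma, adjusted p = 0.000144). In neither gene did the groups overlap.

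The PEA3 family of ETS factors, usual readouts of FGF receptor activity, did not move as 1 group. ETV1 fell to 6.26 ± 0.255 FPKM in LACTB cells, against 9.96 ± 0.159 FPKM in EV cells (difference -0.59, limma, adjusted p = 0.000157), and ETV4 to 23.9 ± 1.33 FPKM, against 29.4 ± 1.41 FPKM in EV cells (difference -0.29, limma, adjusted p = 0.00826). ETV5 stood at 23.9 FPKM in LACTB cells and 21.8 FPKM in EV cells (limma, adjusted p = 0.0777). The Sprouty inhibitor SPRY2 fell to 14.7 ± 0.698 FPKM in LACTB cells, against 19.6 ± 0.580 FPKM in EV cells (difference -0.39, limma, adjusted p = 0.00129), whereas SPRY4 stood at 22.8 FPKM in LACTB cells and 22.5 FPKM in EV cells (limma, adjusted p = 0.769). Of the MAP kinase phosphatases, DUSP5 fell to 17.7 ± 0.663 FPKM in LACTB cells, against 21.6 ± 0.682 FPKM in EV cells (limma, adjusted p = 0.00443), and DUSP6, the ERK phosphatase often read as a marker of FGF signalling, stood at 11.3 FPKM in LACTB cells and 11.9 FPKM in EV cells (limma, adjusted p = 0.297).

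**Figure D4:**
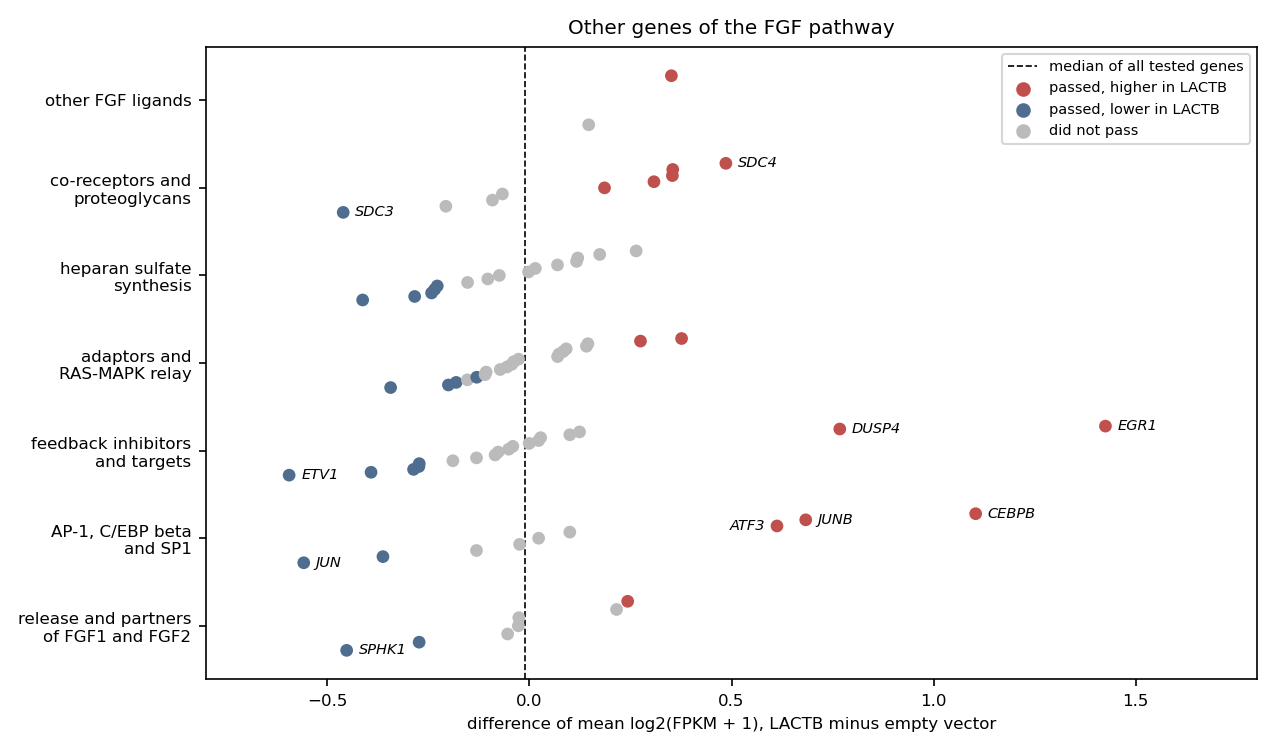
Difference in mean log2(FPKM + 1), LACTB minus empty vector, of each tested gene in the 7 pathway lists; red and blue points passed limma's adjusted p of 0.05 as higher or lower, grey points did not, and the dashed line is the median of all tested genes. Most points lie within 0.5 of 0 on either side, and EGR1 and CEBPB, at 1.43 and 1.10, are the farthest out.

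AP-1 subunits, C/EBP beta and SP1 are factors that have been described at the FGFBP1 promoter in other cells. Of 9 tested genes in that list, 3 rose, 2 fell and 4 did not pass, with a median difference of 0.02. CEBPB had 36.8, 40.6 and 37.8 FPKM in LACTB cells, against 16.6, 15.9 and 19.7 FPKM in EV cells (difference 1.10, SE 0.0802; limma, adjusted p = 0.000137). JUN had 71.0, 80.9 and 81.3 FPKM in LACTB cells, against 120, 113 and 111 FPKM in EV cells (difference -0.56, SE 0.0630; limma, adjusted p = 0.000933). JUNB rose to 32.2 ± 4.80 FPKM, against 19.6 ± 1.83 FPKM in EV cells (limma, adjusted p = 0.00453), and ATF3 to 4.35 ± 0.332 FPKM, against 2.52 ± 0.497 FPKM (limma, adjusted p = 0.00531). FOSL1, the most abundant AP-1 gene of the list, stood at 391 ± 14.2 FPKM in LACTB cells and 368 ± 62.9 FPKM in EV cells (limma, adjusted p = 0.569), and SP1 at 14.2 FPKM in LACTB cells and 14.0 FPKM in EV cells. JUND fell (limma, adjusted p = 0.0409), but without LACTB replicate 1, 2 or 3 or EV replicate 1 or 2 its call was lost (limma, adjusted p = 0.082 to 0.117) and 1 gene of the list was called lower. Whether any of these moved with FGFBP1 through its promoter was not tested.

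In the list of genes tied to release or handling of FGF1 and FGF2, 1 of 7 tested genes rose, 2 fell and 4 did not pass, with a median difference of -0.03. SPHK1, a sphingosine kinase reported to take part in FGF1 release, had 24.1, 27.8 and 27.9 FPKM in LACTB cells, against 38.5, 36.5 and 35.1 FPKM in EV cells (difference -0.45, SE 0.0659; limma, adjusted p = 0.00272). The groups did not overlap. SYT1 rose, but without any library but EV replicate 2 its call was lost (limma, adjusted p = 0.0561 to 0.116, against 0.0343 with all): without LACTB replicate 2 or 3, or EV replicate 1 or 3, the number that rose was 0 (limma), and without LACTB replicate 1 another gene passed. S100A13 fell (limma, adjusted p = 0.0169), and without LACTB replicate 3 (limma, adjusted p = 0.0585) the number that fell was 1.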

How the data were processed

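RNA from 6 libraries of MUM2B cells was measured by RNA-seq. The authors deposited FPKM values per gene, 1 file per library. The submitters' processing notes list DESeq2 1.16.1, HISAT2 2.0.5 and featureCounts 1.5.0-p3 as tools, without their roles, and GRCh38 as the build. The sources used here do not give strand use, pooling or filters. FPKM divides reads by exon length and a library size, and how that size was set is not given in those sources. The size implied by the values was not the total of reads in genes. It lay below that total in EV replicates 1 and 2 and above it in the other libraries. With median-of-ratios scaling, 1760 genes were called higher and 2038 lower, against 1758 and 2038. Whether a rise of abundant genes lowered the values of the rest was not tested further.

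Reads were recovered from FPKM with GENCODE 29 exon lengths; 100% of values came out whole within 0.1 reads. Differences between LACTB and empty vector are of mean log2(FPKM + 1), which understates the change of low genes. Genes averaging 1 FPKM or more were tested with limma 3.58.1 in R 4.3.3 (variance trend, Benjamini-Hochberg adjusted p under 0.05 over all 11875 tested genes). On simulated data for this comparison (11898 genes), 44%, 82%, 89.8% and 100% of genes changed 1.25-, 1.5-, 2- and 4-fold were called. The simulation gave every gene the same fixed spread, not estimated from these libraries, so these shares may not hold for the real data. Exact 95% intervals of read ratios and the floor of 3 reads cover counting error only.

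The members, the pathway lists and the tests were chosen with earlier results of these data known. Members entered that fit with all other genes, but since the same contrast chose them, their place relative to its threshold is a description and no p-value is given for them. From each list, up to 3 genes called higher and 3 called lower with the smallest p were named, plus FGF11, FGF21, SPRY2, SPRY4, DUSP6, ETV4, ETV5, FRS2, GPC1, HSPG2, NUDT6, FOSL1 and JUN. Genes like FGFBP1 were the 5 with the highest r, 1 of which is not reported here, and the 5 lowest ratios of LACTB to empty vector were named. SP1, the neighbours of FGFBP1 and the ranking of protein-coding genes were chosen after their values were seen, as were FGF12, JUND, SYT1, S100A13, GRB2 and CRK where the rule does not name them. So were IL17RD, GPC6, PLCG1, MAPK3 and GAB1. Alternatives were another pseudocount, other filters, TPM, median-of-ratios scaling, voom on recovered reads, no variance trend, a replicate block and leaving out each library. Promoter windows are from RefSeq (GRCh38.p14).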

Additional observations from a re-analysis of the deposited data

How the results depend on the processing

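FGFBP1 was lower in LACTB cells under all 14 alternatives, but the size of its difference rests on how values near 0 are treated: -4.99 with a pseudocount of 0.1, -3.80 on TPM and -6.68 with voom, against -2.28, and -2.34 to -2.25 with 1 library left out. Genes called higher numbered 1155 at a mean of at least 5 FPKM, 1155 with the replicate block and 1115 to 1505 with 1 library left out, against 1758. Genes called lower numbered 1295 on TPM, 1324 with the replicate block and 1388 to 1800 with 1 library left out, against 2038. At a mean of at least 5 FPKM the number called higher was 0 for other FGF ligands, 1 for co-receptors and 8 over all lists. With no filter, 3 co-receptors and 0 release genes were called higher, and 1 AP-1 or C/EBP gene and 1 release gene lower. On TPM, 1 adaptor and 1 release gene were called lower and 0 release genes higher. With voom, 2 co-receptors were called lower and 2 release genes higher, and with no variance trend 1 AP-1 or C/EBP gene was called lower. With 1 library left out, 1 to 4 co-receptors were called higher and 1 to 2 lower, 0 to 1 heparan sulfate genes higher, 1 to 4 adaptors lower, 1 to 2 AP-1 or C/EBP genes lower, 0 to 1 release genes higher and 1 to 2 lower, and 9 to 13 genes over all lists higher. The fits that leave out a library use fewer samples, and the filter tests fewer genes; for the other alternatives the cause was not tested. No direction that was called turned round. Of the values for named pathway genes, 402 kept their side of the threshold and 27 lost the call.

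The replicate numbers are shared by both groups. Deviations of same-numbered libraries had r of -0.126, 0.0194 and -0.0438, against -0.0601 to 0.109 for libraries with different numbers. These few values show no pairing, but they cannot tell whether same-numbered libraries were prepared together. With the replicate block, 3 co-receptors and 0 release genes were called higher and 1 adaptor lower; over all genes the block gave 1155 higher and 1324 lower. Depth limits FGFBP3, FGFR4 and FGF21, which rest on few reads, and FGFR2 and FGFR3, which had at most 1.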
